A study of Mus musculus with 4 samples.

Results

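The 9 genes Il1rapl2, Ncam2, Pcdh7, Trpc6, Dlg2, Magi2, Nbea, Prkg1 and Dok6, best known from neurons, were taken by symbol from the 32285 genes in both count matrices of a single-cell RNA sequencing study of mouse bone marrow. They were listed because they had been seen among the genes that led stem-like cells in these same libraries. Their levels in those cells, and their company with the stem cell genes Procr and Mecom, are therefore given as a description without a test. The cells came from 2 male mice carrying Tppp3CreER, a tamoxifen-inducible Cre recombinase driven by the Tppp3 promoter, together with LSLTdTomato, a reporter that Cre switches on for good. Both mice received tamoxifen at P0 and P3, and their bone marrow was taken at 3 months of age and sorted for cells that lack lineage markers and carry Sca-1 and Kit, a gate that contains the haematopoietic stem cells (HSCs). Each mouse gave a tdTomato-positive tube, of cells labelled by recombination in themselves or in an ancestor, and a tdTomato-negative tube, so all 4 tubes shared genotype and tamoxifen and both tubes of a mouse shared the animal. Every tube was marked with its own hashtag antibody and divided between GEM-X and v3.1, droplet chemistries of 10x Genomics. The 4 samples of the series are thus the mRNA and the hashtag reads of each chemistry, with no second library of any kind.

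Neurons use adhesion molecules to hold a synapse together and scaffold proteins to gather receptors, channels and kinases beneath the membrane. Il1rapl2 belongs to the interleukin-1 receptor family and resembles Il1rapl1, a synaptic organiser. Ncam2 is an immunoglobulin-superfamily adhesion molecule known from olfactory axons, and Pcdh7 is a protocadherin, an adhesion molecule of the cadherin superfamily. Trpc6 forms a calcium-permeable cation channel opened by diacylglycerol. Dlg2 (PSD-93) and Magi2 (S-SCAM) are PDZ-domain scaffolds of the membrane-associated guanylate kinase family, and Nbea is a BEACH-domain protein that anchors protein kinase A and acts in membrane trafficking. Prkg1 is the cGMP-dependent protein kinase that acts downstream of nitric oxide in smooth muscle and platelets, and Dok6 is a docking adaptor of receptor tyrosine kinases such as RET. Procr encodes the endothelial protein C receptor, a surface marker of HSCs, and Mecom encodes the transcription factor EVI1, which HSCs need to persist.

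The 9 genes had long loci in common, a property the choice did not use. In GENCODE M21 on GRCm38 they spanned 137 kb (Trpc6) to 1973 kb (Dlg2), with a median of 559 kb, against a median of 12.3 kb over the 32235 genes matched to that annotation. All 9 exceeded 100 kb, as did 8.70% of all matched genes, and 5 exceeded 500 kb, as did 0.723%. Among the surface genes, Il1rapl2 lay at chrX:137570608-138846946 (+ strand, 11 merged exonic blocks), Ncam2 at chr16:81200697-81626828 (+ strand, 20 merged exonic blocks) and Pcdh7 at chr5:57717967-58133230 (+ strand, 7 merged exonic blocks). The channel gene Trpc6 lay at chr9:8544142-8680741 (+ strand, 13 merged exonic blocks). Of the scaffolds, Dlg2 lay at chr7:90476672-92449247 (+ strand, 37 merged exonic blocks), Magi2 at chr5:19227036-20704792 (+ strand, 30 merged exonic blocks) and Nbea at chr3:55625195-56183701 (- strand, 60 merged exonic blocks). The kinase gene Prkg1 lay at chr19:30564489-31765033 (- strand, 24 merged exonic blocks). Between 94.4% (Nbea) and 99.6% (Il1rapl2) of each locus was not exonic. By contrast Procr spanned 4.36 kb at chr2:155751117-155755471 (+ strand, 3 merged exonic blocks), while Mecom spanned 597 kb at chr3:29951296-30548008 (- strand, 24 merged exonic blocks). Genes on the opposite strand overlapped Il1rapl2 (Tex13a), Dlg2 (4930567K12Rik), Trpc6 (Gm32014), Nbea (Gm43376 and Mab21l1), Prkg1 (Cstf2t), Pcdh7 (4932441J04Rik) and Mecom (Mecomos), and genes on the same strand overlapped Dlg2 (Gm45159) and Magi2 (Gm29254). Neither the use of strand nor the counting of intronic reads is given in the sources used here, so reads from an overlapping partner could not be told apart from those of the member.

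Promoter windows of 300 bases, from 250 before to 50 after an annotated start, were found for 8 of the 9 genes in the RefSeq table of GRCm38.p6. Those printed are of Ncam2, the member most restricted to HSC-like cells, of Dlg2, at the 1 of its 3 annotated starts whose window held the most motif matches, and of Trpc6 and Prkg1, the pair whose levels across clusters were most alike. Bases are in lower case, with CG dinucleotides, the sites of DNA methylation, in capitals. The windows lay at chr16:81200447-81200746 on the + strand (Ncam2), chr7:92062144-92062443 on the + strand (Dlg2, at a start within the locus), chr9:8543892-8544191 on the + strand (Trpc6), and chr19:31664321-31664620 on the - strand and chr19:31764984-31765283 on the - strand (Prkg1, at a start within the locus and at its outer start).
Ncam2: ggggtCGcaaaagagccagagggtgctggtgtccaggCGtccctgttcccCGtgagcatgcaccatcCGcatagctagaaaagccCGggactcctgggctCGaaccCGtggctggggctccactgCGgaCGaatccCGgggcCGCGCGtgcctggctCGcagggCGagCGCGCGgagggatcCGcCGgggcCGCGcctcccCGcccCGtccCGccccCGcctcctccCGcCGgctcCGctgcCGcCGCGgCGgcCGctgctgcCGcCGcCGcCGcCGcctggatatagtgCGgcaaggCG
Dlg2: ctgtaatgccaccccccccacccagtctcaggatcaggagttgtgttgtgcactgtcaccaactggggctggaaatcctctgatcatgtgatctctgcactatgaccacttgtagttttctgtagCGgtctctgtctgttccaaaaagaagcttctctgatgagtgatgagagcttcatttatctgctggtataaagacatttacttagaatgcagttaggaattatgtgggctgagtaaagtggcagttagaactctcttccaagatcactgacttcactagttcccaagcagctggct
Trpc6: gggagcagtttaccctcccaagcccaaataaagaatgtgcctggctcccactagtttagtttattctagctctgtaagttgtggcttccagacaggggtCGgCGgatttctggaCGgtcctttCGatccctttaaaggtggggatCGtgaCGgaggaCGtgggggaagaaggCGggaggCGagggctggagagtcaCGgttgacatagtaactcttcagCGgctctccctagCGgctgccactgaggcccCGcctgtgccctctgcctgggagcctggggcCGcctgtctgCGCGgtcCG
Prkg1 inner start: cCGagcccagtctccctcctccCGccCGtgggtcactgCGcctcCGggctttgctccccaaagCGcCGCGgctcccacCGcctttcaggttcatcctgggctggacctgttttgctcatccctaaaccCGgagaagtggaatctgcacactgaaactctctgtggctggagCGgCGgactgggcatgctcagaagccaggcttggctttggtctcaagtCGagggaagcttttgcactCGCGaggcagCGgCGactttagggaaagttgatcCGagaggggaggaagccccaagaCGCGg
Prkg1 outer start: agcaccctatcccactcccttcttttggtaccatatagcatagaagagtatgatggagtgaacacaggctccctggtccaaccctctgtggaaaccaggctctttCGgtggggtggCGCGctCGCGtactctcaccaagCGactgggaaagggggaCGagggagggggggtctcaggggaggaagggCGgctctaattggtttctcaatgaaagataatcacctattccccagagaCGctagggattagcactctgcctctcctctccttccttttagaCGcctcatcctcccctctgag

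Ncam2 had 41 CG dinucleotides in its window, more than 96.8% of the 32851 RefSeq promoters, whose median was 7. The printed Dlg2 window had 1 and its other 2 windows 3 and 2. The Trpc6 window had 17, and the Prkg1 windows 20 and 10. The letters AGATAA, which zinc-finger factors such as Gata2 prefer, were searched on both strands and stood in 11.2% of all promoters. Those of RUNX factors, TGTGGT, stood in 16.8%, those of ETS factors, CCGGAA, in 14.9%, and those of MEIS factors, TGACAG, in 19.2%. The E-box CACGTG stood in 7.15% and the core promoter element TATAAA in 13.6%, and no matches in the members' windows overlapped. In the printed Dlg2 window the zinc-finger, MEIS and core promoter letters each occurred once, and in the outer Prkg1 window the zinc-finger letters did. The Ncam2, Trpc6 and inner Prkg1 windows held none of the 6, which says only that these letters are not in these windows.

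The GEM-X gene expression library held 234563105 unique molecular identifiers (UMIs, counted molecules) in 20511 barcodes, and the v3.1 library 178214937 in 17755, with 0 barcodes in common. Filtering and hashtags left 17986 GEM-X and 14344 v3.1 cells with exactly 1 hashtag, 1725 to 6860 per tube and chemistry, with 13883381 to 78814028 summed UMIs and medians of 6650 to 10028 UMIs per cell. Of 18 clusters, clusters 3 (3243 cells) and 0 (4400 cells) were called HSC-like, with 14 of 14 and 10 of 13 detected HSC markers raised. All 9 members were among the variable genes behind the clusters. HSC-like cells were 19.9% and 25.9% of GEM-X cells in the tdTomato-positive tubes of mouse 1 and mouse 2 and 21.5% and 28.3% in the tdTomato-negative tubes. They had fewer UMIs than the rest, a median of 7339 in HSC-like and 10434 in other GEM-X cells, and 6034 in HSC-like and 8292 in other v3.1 cells. Neural identity markers were nearly absent, since 10 of 12 neural and glial markers lay under 1 CPM (UMIs scaled to a common library total) in HSC-like cells and Stmn2 and Sox10 were at 0. The summed level of that list was 116 to 120.4 CPM per tube in HSC-like cells, of which Mbp gave 108 CPM, and 86.7 to 93.0 CPM in other cells. Of 12 stromal and smooth muscle markers, Col3a1, Rgs5 and Des were at 0 and 10 were under 1 CPM, with Pdgfrb highest at 26 CPM.

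A UMI of at least 1 of the 9 genes was found in 78.0% of GEM-X cells (71.4% to 82.6% over tubes) and 77.0% of v3.1 cells (71.5% to 80.3%). For 8 of the 9 genes the level in HSC-like cells was above that in the other cells of every tube and chemistry. Pcdh7 was the exception, and Dok6 was highest outside the HSC-like clusters with GEM-X, in the low-UMI cluster 11. The description as genes that lead stem-like cells thus does not hold for Pcdh7 and holds for Dok6 only in part. Mecom, too, was highest in cluster 11 with GEM-X, at 1227 CPM against 1160 CPM in HSC-like cluster 3. For Trpc6, Prkg1 and Dlg2, cluster 3 led, but megakaryocyte-platelet-like cluster 10 stood above HSC-like cluster 0 in total with both chemistries. The share of all genes higher in every tube and chemistry was not computed. The members were listed for leading these cells, so the count of 8 only describes them. Levels are UMIs summed per tube and chemistry and scaled to CPM. Shares of cells with a UMI were compared after each cell was thinned to 5000 UMIs, which left out shallower cells, 249 HSC-like and 893 other GEM-X cells and 814 HSC-like and 1474 other v3.1 cells. Exact binomial intervals cover counting error alone, and levels of different genes were not compared.

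**Figure D1:**
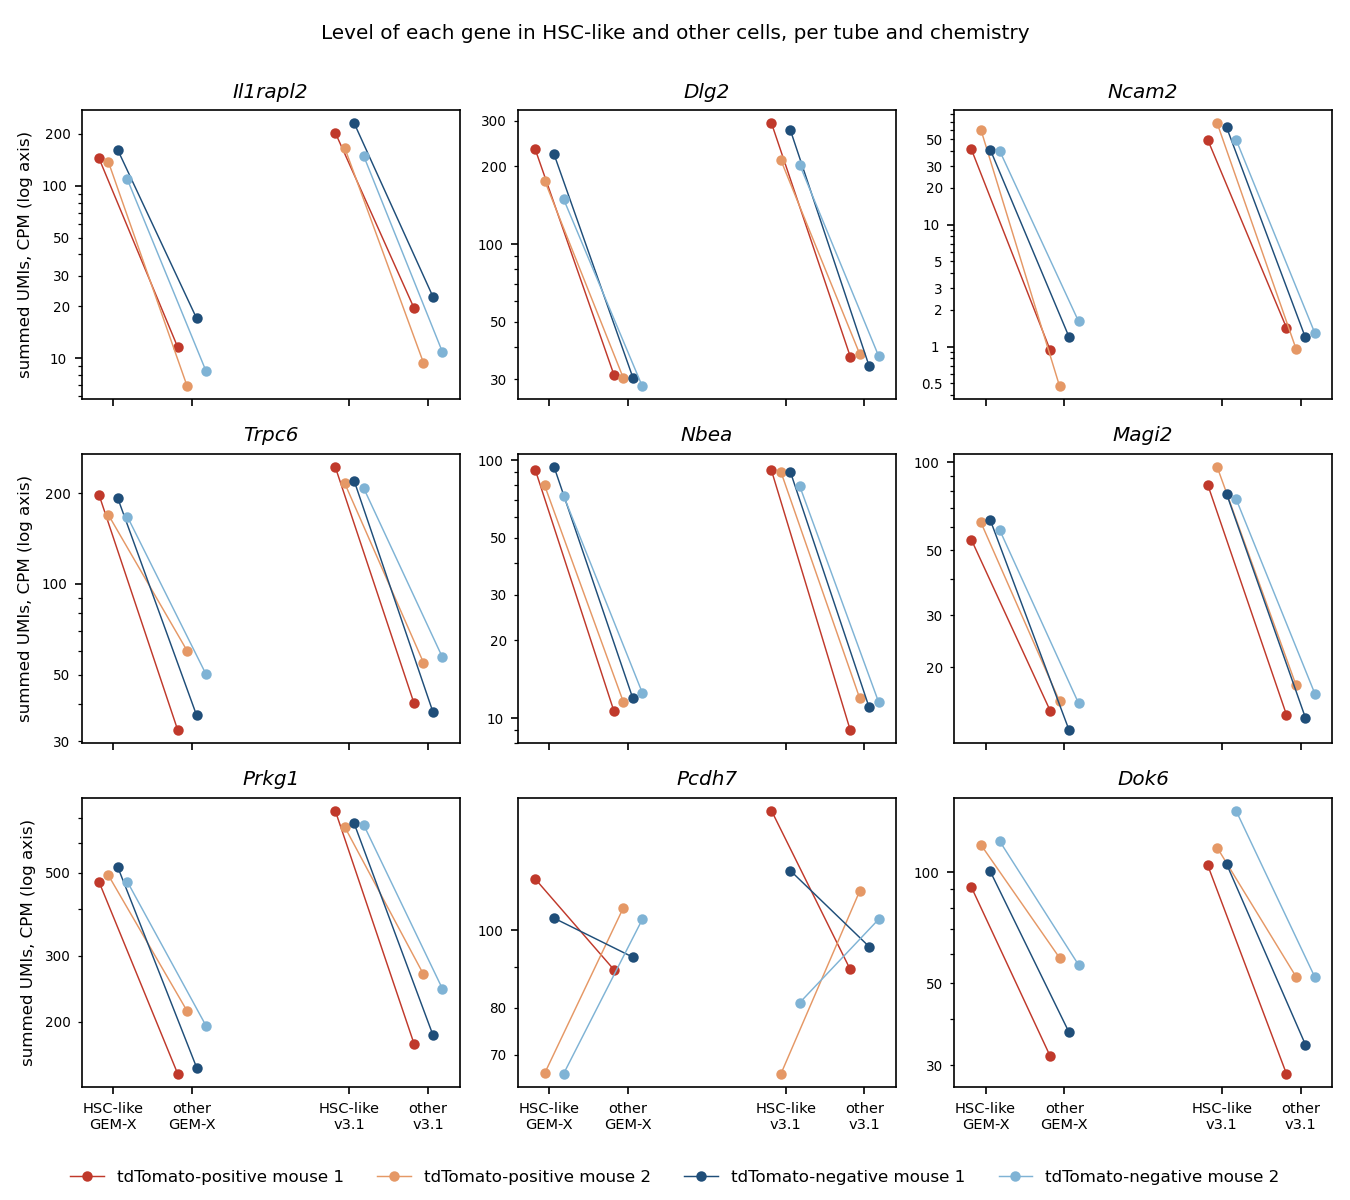
Level of each of the 9 genes (CPM of summed UMIs, log axis) in HSC-like cells and in all other cells, with 1 point per tube and lines joining the values of a tube, for GEM-X on the left and v3.1 on the right of each panel. Lines fall from HSC-like to other cells in 8 panels, while in the Pcdh7 panel they fall for both tubes of mouse 1 and climb for both tubes of mouse 2.

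Il1rapl2, the interleukin-1 receptor family member, was high in HSC-like cells, above all in cluster 3. In HSC-like cells it stood at 145 and 138 CPM in the tdTomato-positive tubes of mouse 1 and mouse 2 and 161 and 109 CPM in the tdTomato-negative tubes with GEM-X, and at 204 and 166 CPM in the tdTomato-positive tubes of mouse 1 and mouse 2 and 231 and 149.6 CPM in the tdTomato-negative tubes with v3.1. In other cells it stood at 6.86 to 17.0 CPM with GEM-X and 9.39 to 22.7 CPM with v3.1, so no HSC-like value overlapped the others, and the ratio of HSC-like to other cells within a tube was 9.47 to 20.1 times with GEM-X and 10.2 to 17.7 times with v3.1. At 5000 UMIs it was detected in 25.3% (exact 95% interval 24.0 to 26.6) of HSC-like and 3.79% (exact 95% interval 3.46 to 4.13) of other GEM-X cells, and in 27.5% of HSC-like and 3.75% of other v3.1 cells. Without thinning the shares were 30% of HSC-like and 5.34% of other GEM-X cells, and 31.7% of HSC-like and 5.68% of other v3.1 cells. Cluster 3 was highest, with 172 to 360.5 CPM over the 8 combinations of tube and chemistry, and cluster 0 followed with 65.9 to 167 CPM, all below the lowest value of cluster 3. The next clusters were cluster 13, led by interferon genes, at 49.5 CPM with GEM-X, and cluster 11, of low UMIs, at 94.1 CPM with v3.1. Megakaryocyte-platelet-like clusters 8 and 10 had 11.8 and 6.42 CPM with GEM-X.

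Ncam2, the olfactory adhesion molecule, was the member most confined to HSC-like cells by ratio and the one found in the fewest of them. HSC-like cells held 41.4 and 60.1 CPM in the tdTomato-positive tubes of mouse 1 and mouse 2 and 41.1 and 40.1 CPM in the tdTomato-negative tubes with GEM-X, and 49.7 and 67.8 CPM in the tdTomato-positive tubes of mouse 1 and mouse 2 and 62.6 and 49.7 CPM in the tdTomato-negative tubes with v3.1. The remaining cells held 0.473 to 1.62 CPM with GEM-X and 0.966 to 1.43 CPM with v3.1, and no HSC-like value overlapped them. Within a tube the HSC-like level was 24.8 to 127 times with GEM-X and 34.8 to 70.3 times with v3.1 that of other cells, a wide range that comes with other-cell levels near 1 CPM. Detection at 5000 UMIs reached 8.11% (exact 95% interval 7.29 to 8.98) of HSC-like and 0.378% (exact 95% interval 0.279 to 0.501) of other GEM-X cells, and 7.72% of HSC-like and 0.385% of other v3.1 cells. The unthinned shares were 10.2% of HSC-like and 0.677% of other GEM-X cells, and 9.72% of HSC-like and 0.676% of other v3.1 cells. Among HSC-like cells it was concentrated in cluster 3, where it was the leading gene, at 94.8 CPM with GEM-X and 130.0 CPM with v3.1, while HSC-like cluster 0 had 5.07 and 7.71 CPM. The ranges over tubes and chemistries, 86.1 to 150.3 CPM in cluster 3 and 3.65 to 17.2 CPM in cluster 0, did not overlap.

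Pcdh7, the protocadherin, was not an HSC-like gene by level. HSC-like cells had 116 and 66.3 CPM in the tdTomato-positive tubes of mouse 1 and mouse 2 and 103 and 66.2 CPM in the tdTomato-negative tubes with GEM-X, and 141 and 66.2 CPM in the tdTomato-positive tubes of mouse 1 and mouse 2 and 119 and 81.2 CPM in the tdTomato-negative tubes with v3.1. Other cells had 89.3 to 107 CPM with GEM-X and 89.3 to 112 CPM with v3.1, inside the HSC-like range. The HSC-like level of Pcdh7 was above the other cells in both tubes and chemistries of mouse 1 and below them in those of mouse 2, with ratios of 0.622 to 1.30 times with GEM-X and 0.592 to 1.58 times with v3.1. Its thinned shares were 21.4% (exact 95% interval 20.1 to 22.6) of HSC-like and 24.8% (exact 95% interval 24.0 to 25.5) of other GEM-X cells, and 24.8% of HSC-like and 24.7% of other v3.1 cells. Before thinning they were 25.4% of HSC-like and 33.0% of other GEM-X cells, and 25% of HSC-like and 29.8% of other v3.1 cells, lower in HSC-like cells, which were also shallower. The highest clusters were megakaryocyte-platelet-like, cluster 10 with 327 CPM with GEM-X and 335 CPM with v3.1 and cluster 8 with 284 and 289 CPM, followed by the low-UMI cluster 11 with 263 and 203 CPM. Over tubes and chemistries clusters 10 (271 to 382 CPM) and 8 (225 to 366 CPM) overlapped each other and both lay above HSC-like clusters 3 (92.9 to 212 CPM) and 0 (40.4 to 89.0 CPM).

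Trpc6, the calcium-permeable channel, was high in HSC-like and in megakaryocyte-platelet-like cells. Its HSC-like levels were 198 and 169.5 CPM in the tdTomato-positive tubes of mouse 1 and mouse 2 and 192 and 167 CPM in the tdTomato-negative tubes with GEM-X, and 245 and 216 CPM in the tdTomato-positive tubes of mouse 1 and mouse 2 and 219.9 and 208 CPM in the tdTomato-negative tubes with v3.1. Other cells had 32.7 to 59.9 CPM with GEM-X and 37.6 to 57.1 CPM with v3.1, and the groups did not overlap. HSC-like cells exceeded other cells by 2.83 to 6.05 times with GEM-X and 3.65 to 6.10 times with v3.1. At 5000 UMIs Trpc6 was seen in 43.7% (exact 95% interval 42.2 to 45.2) of HSC-like and 14.5% (exact 95% interval 13.9 to 15.2) of other GEM-X cells, and in 49.5% of HSC-like and 14.9% of other v3.1 cells, against unthinned shares of 53.7% of HSC-like and 21.3% of other GEM-X cells, and 54.3% of HSC-like and 20.9% of other v3.1 cells. The order of clusters began with HSC-like cluster 3 (259 to 436 CPM over tubes and chemistries), then megakaryocyte-platelet-like clusters 10 (141 to 256 CPM) and 8 (134 to 177 CPM), then HSC-like cluster 0 (83.0 to 122 CPM). Clusters 10 and 8 overlapped, and clusters 3 and 0 did not. The lowest clusters were erythroid-like with GEM-X, at 0.310 CPM, and lymphoid-like cluster 9 with v3.1, at 0.786 CPM.

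Dlg2, the scaffold PSD-93, was high in HSC-like cells and also present in megakaryocyte-platelet-like cells and, at lower levels, in B cell-like cells. The gene stood at 233 and 176 CPM in the tdTomato-positive tubes of mouse 1 and mouse 2 and 223 and 149.6 CPM in the tdTomato-negative tubes in HSC-like cells with GEM-X, and at 294 and 211 CPM in the tdTomato-positive tubes of mouse 1 and mouse 2 and 276 and 202 CPM in the tdTomato-negative tubes with v3.1. Elsewhere it stood at 28.2 to 31.2 CPM with GEM-X and 33.7 to 37.6 CPM with v3.1, without overlap with the HSC-like values. The HSC-like level was 5.31 to 7.47 times with GEM-X and 5.48 to 8.19 times with v3.1 that of other cells. Shares at 5000 UMIs were 45.4% (exact 95% interval 43.9 to 46.9) of HSC-like and 9.52% (exact 95% interval 9.01 to 10) of other GEM-X cells, and 47.9% of HSC-like and 10.6% of other v3.1 cells, and unthinned shares were 53.4% of HSC-like and 14.3% of other GEM-X cells, and 53.6% of HSC-like and 15.3% of other v3.1 cells. HSC-like cluster 3 led with 266 to 478 CPM over tubes and chemistries, above megakaryocyte-platelet-like cluster 10 with 87.2 to 245 CPM and HSC-like cluster 0 with 60.8 to 159.8 CPM, whose ranges overlapped. In the B cell-like cluster 33 of 107 GEM-X cells and 28 of 87 v3.1 cells had a Dlg2 UMI, at 54.3 and 72.7 CPM, although 0 of those 107 and 87 cells had a UMI of Il1rapl2, which allows shares of up to 3.39% and 4.15% by the exact interval. In lymphoid-like cluster 9 Dlg2 lay at 0.576 CPM with GEM-X and 0.629 CPM with v3.1.

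Magi2, the scaffold S-SCAM, was higher in HSC-like cells, mostly through cluster 3. HSC-like cells contained 54.3 and 62.4 CPM in the tdTomato-positive tubes of mouse 1 and mouse 2 and 63.4 and 58.6 CPM in the tdTomato-negative tubes with GEM-X, and 83.8 and 96.3 CPM in the tdTomato-positive tubes of mouse 1 and mouse 2 and 77.9 and 74.9 CPM in the tdTomato-negative tubes with v3.1. The other cells contained 12.2 to 15.3 CPM with GEM-X and 13.4 to 17.4 CPM with v3.1, and the groups stood apart. Ratios within a tube were 3.83 to 5.20 times with GEM-X and 4.62 to 6.10 times with v3.1. Its share of cells at 5000 UMIs was 17.4% (exact 95% interval 16.2 to 18.6) of HSC-like and 6.61% (exact 95% interval 6.18 to 7.05) of other GEM-X cells, and 19.6% of HSC-like and 6.41% of other v3.1 cells, and its unthinned share 22.2% of HSC-like and 12.2% of other GEM-X cells, and 22.5% of HSC-like and 11.2% of other v3.1 cells. Cluster 3 reached 101 to 201 CPM over tubes and chemistries, all above the 13.3 to 33.4 CPM of cluster 0, which overlapped the megakaryocyte-platelet-like clusters 8 (18.6 to 40.4 CPM) and 10 (10.1 to 28.1 CPM).

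Nbea, the trafficking protein neurobeachin, had much the same level in both chemistries. It lay at 91.9 and 79.7 CPM in the tdTomato-positive tubes of mouse 1 and mouse 2 and 94.0 and 72.7 CPM in the tdTomato-negative tubes in HSC-like cells with GEM-X, and at 91.1 and 89.9 CPM in the tdTomato-positive tubes of mouse 1 and mouse 2 and 89.9 and 79.0 CPM in the tdTomato-negative tubes with v3.1. It lay at 10.6 to 12.5 CPM with GEM-X and 8.98 to 11.9 CPM with v3.1 in other cells, below every HSC-like value. The ratio of HSC-like to other cells was 5.80 to 8.64 times with GEM-X and 6.85 to 10.1 times with v3.1. Nbea had a UMI in 28.3% (exact 95% interval 27.0 to 29.7) of HSC-like and 5.34% (exact 95% interval 4.95 to 5.74) of other GEM-X cells at 5000 UMIs, and in 26.8% of HSC-like and 4.75% of other v3.1 cells, with unthinned shares of 36.4% of HSC-like and 9.35% of other GEM-X cells, and 32.2% of HSC-like and 7.67% of other v3.1 cells. Cluster 3 had 128 to 166 CPM over tubes and chemistries, and cluster 0, with 34.9 to 53.4 CPM, did not reach it but overlapped cluster 7, led by immunoglobulin genes, at 29.4 to 70.4 CPM.

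Prkg1, the cGMP-dependent kinase of platelets and smooth muscle, was detected in most HSC-like cells. Its levels there were 473 and 492 CPM in the tdTomato-positive tubes of mouse 1 and mouse 2 and 517 and 473 CPM in the tdTomato-negative tubes with GEM-X, and 732 and 663 CPM in the tdTomato-positive tubes of mouse 1 and mouse 2 and 677 and 672 CPM in the tdTomato-negative tubes with v3.1. Outside them the levels were 145 to 214 CPM with GEM-X and 175 to 268 CPM with v3.1, again without overlap. HSC-like cells had 2.31 to 3.42 times with GEM-X and 2.47 to 4.19 times with v3.1 the level of other cells. It was found in 72.5% (exact 95% interval 71.1 to 73.8) of HSC-like and 37.2% (exact 95% interval 36.4 to 38.1) of other GEM-X cells at 5000 UMIs, and in 77.5% of HSC-like and 40.1% of other v3.1 cells, and in 78.7% of HSC-like and 45.8% of other GEM-X cells, and 78.8% of HSC-like and 47.4% of other v3.1 cells before thinning. After HSC-like cluster 3, with 713 to 1126 CPM over tubes and chemistries, came megakaryocyte-platelet-like clusters 10 (469.8 to 834 CPM) and 8 (509 to 756 CPM), which overlapped each other and cluster 3, and then HSC-like cluster 0 (285 to 448 CPM). Within each chemistry cluster 3 exceeded clusters 10 and 8 in total, at 732 against 563 and 550.4 CPM with GEM-X and 1038 against 731 and 679 CPM with v3.1.

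Dok6, the docking adaptor, encoded at chr18:89292424-89769528 (- strand, 8 merged exonic blocks), was higher in HSC-like cells. It had 91.0 and 119 CPM in the tdTomato-positive tubes of mouse 1 and mouse 2 and 100.3 and 121 CPM in the tdTomato-negative tubes in HSC-like cells with GEM-X, and 104 and 116 CPM in the tdTomato-positive tubes of mouse 1 and mouse 2 and 105 and 147 CPM in the tdTomato-negative tubes with v3.1. It had 31.8 to 58.5 CPM with GEM-X and 28.4 to 52.1 CPM with v3.1 in other cells, below every HSC-like value. Ratios were 2.02 to 2.87 times with GEM-X and 2.23 to 3.67 times with v3.1. The share of cells with a Dok6 UMI at 5000 UMIs was 35.2% (exact 95% interval 33.7 to 36.7) of HSC-like and 18.8% (exact 95% interval 18.1 to 19.5) of other GEM-X cells, and 37.0% of HSC-like and 16.5% of other v3.1 cells, and the unthinned share was 43.7% of HSC-like and 28.5% of other GEM-X cells, and 40.6% of HSC-like and 24.0% of other v3.1 cells. HSC-like clusters 3 and 0 had nearly the same level, 90.9 to 144 and 91.0 to 148 CPM over tubes and chemistries, and the low-UMI cluster 11 had 149 CPM with GEM-X, the highest of any cluster, and 105 CPM with v3.1. T and NK cell-like cells, with 38 and 38 cells, had 60.9 and 64.8 CPM.

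The erythroid-like cluster 16, whose cells had a median of 34664 UMIs, was the lowest cluster for Magi2 and Dok6 in both chemistries. It is described for comparison only, as its low levels were seen in these same data. Unthinned, Dok6 stood there at 3.66 CPM with v3.1 and Magi2 at 0.310 CPM with GEM-X. At 5000 UMIs, Il1rapl2, Ncam2, Nbea, Magi2 and Dok6 were in 0 of its 95 GEM-X and 0 of its 68 v3.1 cells, which allows shares of up to 3.81% and 5.28% by the exact interval. Prkg1 was in 2.11% and 4.41% of these cells, Pcdh7 in 7.37% and 11.8%, Trpc6 in 0% and 1.47%, and Dlg2 in 0% and 1.47%. For all 9 genes the shares in HSC-like cells were above these. This held for Pcdh7 too, so the contrast does not single out HSC-like genes.

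Several members differed between the mice in every gate and chemistry. Pcdh7 in HSC-like cells lay at 103 to 141 CPM in mouse 1 and 66.2 to 81.2 CPM in mouse 2 over gates and chemistries, without overlap, and the same held within HSC-like cluster 3 (132 to 212 CPM in mouse 1 and 92.9 to 115 CPM in mouse 2), within cluster 0 (77.3 to 89.0 CPM in mouse 1 and 40.4 to 59.1 CPM in mouse 2) and in megakaryocyte-platelet-like cells (337 to 354 CPM in mouse 1 and 268 to 277 CPM in mouse 2). In the remaining cells, with the HSC-like clusters left out, the order was reversed, with 89.3 to 95.4 CPM in mouse 1 and 103 to 112 CPM in mouse 2. Dlg2 in HSC-like cells was also higher in mouse 1 without overlap, with 223 to 294 CPM in mouse 1 and 149.6 to 211 CPM in mouse 2. Dok6 went the other way, with 91.0 to 105 CPM in mouse 1 and 116 to 147 CPM in mouse 2 in HSC-like cells and 28.4 to 36.8 CPM in mouse 1 and 52.0 to 58.5 CPM in mouse 2 in other cells. Trpc6 and Prkg1 were lower in mouse 1 in other cells, where Trpc6 had 32.7 to 40.1 CPM in mouse 1 and 50.1 to 59.9 CPM in mouse 2 and Prkg1 145 to 184 CPM in mouse 1 and 195 to 268 CPM in mouse 2. In HSC-like cells Trpc6 went the other way, higher in mouse 1 in 4 of 4 pairs of the same gate and chemistry (192 to 245 CPM in mouse 1 and 167 to 216 CPM in mouse 2), and Prkg1 was higher in mouse 1 in 3 of 4. Il1rapl2 was higher in mouse 1 in 4 of 4 pairs in HSC-like cells and in 4 of 4 in other cells, where its ranges did not overlap (11.6 to 22.7 CPM in mouse 1 and 6.86 to 10.9 CPM in mouse 2). Nbea was higher in mouse 1 in 4 of 4 pairs in HSC-like cells (89.9 to 94.0 CPM in mouse 1 and 72.7 to 89.9 CPM in mouse 2) and in 0 of 4 in other cells. Magi2 and Ncam2 were higher in mouse 1 in 2 of 4 pairs in HSC-like cells, and in 0 and 2 of 4 in other cells. The cluster mix differed between the mice too, with the megakaryocyte-platelet-like cluster 8 at 3.31% and 6.16% of GEM-X cells in the tdTomato-positive tubes of mouse 1 and mouse 2 and 3.83% and 6.05% in the tdTomato-negative tubes, and its part in the levels of other cells was not tested. With 1 animal on each side, the mouse and everything handled with it cannot be told apart, so these differences carry no test. The share of all genes that differed so between the mice was not computed.

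Members were unevenly spread among HSC-like cells. At 5000 UMIs the Fano factor, the variance of UMIs per cell divided by their mean and 1 under Poisson sampling of equal cells, was 5.19 with GEM-X and 8.50 with v3.1 for Ncam2, the largest, and 3.51 and 4.79 for Il1rapl2. Nbea, with 1.53 and 1.63, and Dok6, with 1.59 and 1.59, were the least uneven members, and Procr had 1.11 and 1.15. Il1rapl2 was seen in 25.3% of GEM-X HSC-like cells, where its mean of 0.685 UMIs spread at random would give 49.6%, and Ncam2 in 8.11% where 19.3% would follow. Procr, at 26.8% against 28.0%, was close to random. The shares of all 9 members fell short of the Poisson value in 4 of 4 tubes with both chemistries. Mecom, with Fano factors of 2.19 and 3.00, did so too, and Procr in 4 of 4 GEM-X and 3 of 4 v3.1 tubes. The share of all genes that fell short was not computed, so the shortfall is not shown to be particular to the members. The 1% of cells with the most UMIs of a gene held 39.0% of the Ncam2 UMIs with GEM-X and 43.4% with v3.1, but 4.92% and 4.88% of the Prkg1 UMIs. In cells with the gene, Ncam2 averaged 2.64 and 3.37 UMIs and Nbea 1.49 and 1.52. HSC-like cells were of 2 clusters that differ in most of these genes. Within cluster 3 alone the Fano factor was 5.14 with GEM-X and 8.63 with v3.1 for Ncam2, and 3.49 and 4.84 for Il1rapl2. Within cluster 0 it was 3.06 and 2.93 for Ncam2 and 3.30 and 4.16 for Il1rapl2. Dlg2 had 2.01 and 2.51 over both clusters, 1.64 and 1.99 in cluster 3 and 1.83 and 2.32 in cluster 0. The part of the mix in the unevenness was not tested.

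**Figure D2:**
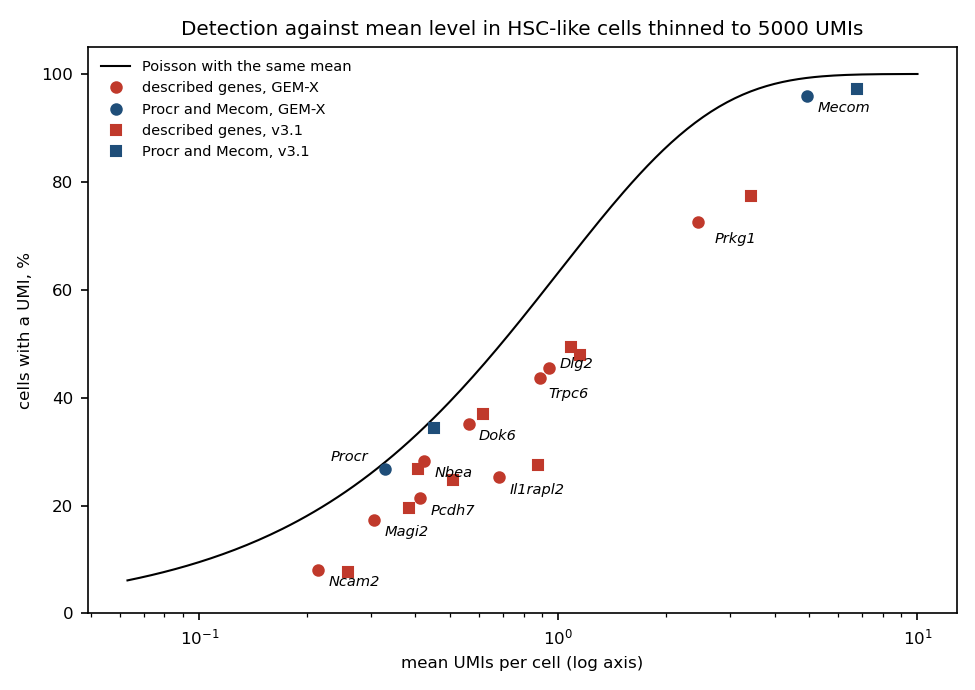
Share of HSC-like cells with a UMI of a gene (percent, thinned to 5000 UMIs) against the mean UMIs per cell, per gene and chemistry, with the curve that Poisson sampling of equal cells would give. Procr lies close to the curve, the 9 members lie below it, and Il1rapl2 lies far below.

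Cells were then grouped by a UMI of Procr and of Mecom at 5000 UMIs, as a description, since these genes mark the cells the members were chosen for. Cells with both numbered 1777 with GEM-X and 1647 with v3.1, cells with Mecom alone 10310 and 7419, cells with Procr alone 253 and 190, and cells with neither 4504 and 2800. At least 3 of the 9 members were found in 47.6% of GEM-X cells with both and 7.48% of those with neither, and in 45.4% and 6.79% with v3.1. Mecom alone went with 31.7% and 29.1%, and Procr alone with 13.4% and 7.89%, so the share beside Mecom alone exceeded that beside Procr alone in both chemistries. No member was found in 11.1% of GEM-X cells with both and 54.4% of those with neither.

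Of the surface genes, Il1rapl2 was in 20.7% of GEM-X cells with both genes and 2.02% of those with neither (17.2% to 24.2% and 1.21% to 2.92% over the 4 tubes), and in 18.8% of v3.1 cells with both genes and 1.96% of those with neither. Ncam2 was in 7.09% of GEM-X cells with both genes and 0.222% of those with neither, and in 4.98% of v3.1 cells with both genes and 0.179% of those with neither. For both genes the tubes did not overlap between the groups of cells in either chemistry. Pcdh7 was in 21.6% of GEM-X cells with both genes and 18.3% of those with neither, higher in 2 of 4 tubes, and in 23.7% of v3.1 cells with both genes and 17.0% of those with neither, higher in 4 of 4. The channel gene Trpc6 was in 37.9% of GEM-X cells with both genes and 7.15% of those with neither, and in 37.0% of v3.1 cells with both genes and 6.71% of those with neither. Its tubes, too, stood apart between cells with both genes and cells with neither. Of the scaffolds, Dlg2 was in 36.9% of GEM-X cells with both genes and 4.31% of those with neither, and in 34.6% of v3.1 cells with both genes and 4.25% of those with neither. Magi2 was in 15.1% of GEM-X cells with both genes and 5.46% of those with neither, and in 15.8% of v3.1 cells with both genes and 4.32% of those with neither. Nbea was in 25.1% of GEM-X cells with both genes and 3.02% of those with neither, and in 20.3% of v3.1 cells with both genes and 2.14% of those with neither. The shares of these 3 scaffold and trafficking genes were higher beside Procr and Mecom in 4 of 4 tubes of both chemistries, without overlap. Prkg1 was in 65.2% of GEM-X cells with both genes and 23.7% of those with neither, and in 68.1% of v3.1 cells with both genes and 22.7% of those with neither. Dok6 was in 29.0% of GEM-X cells with both genes and 13.0% of those with neither, and in 28.7% of v3.1 cells with both genes and 9.71% of those with neither. Prkg1 and Dok6 were both higher in 4 of 4 tubes. The share of all genes that were higher or stood apart in this way was not computed, so the separation is not shown to be particular to the members.

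**Figure D3:**
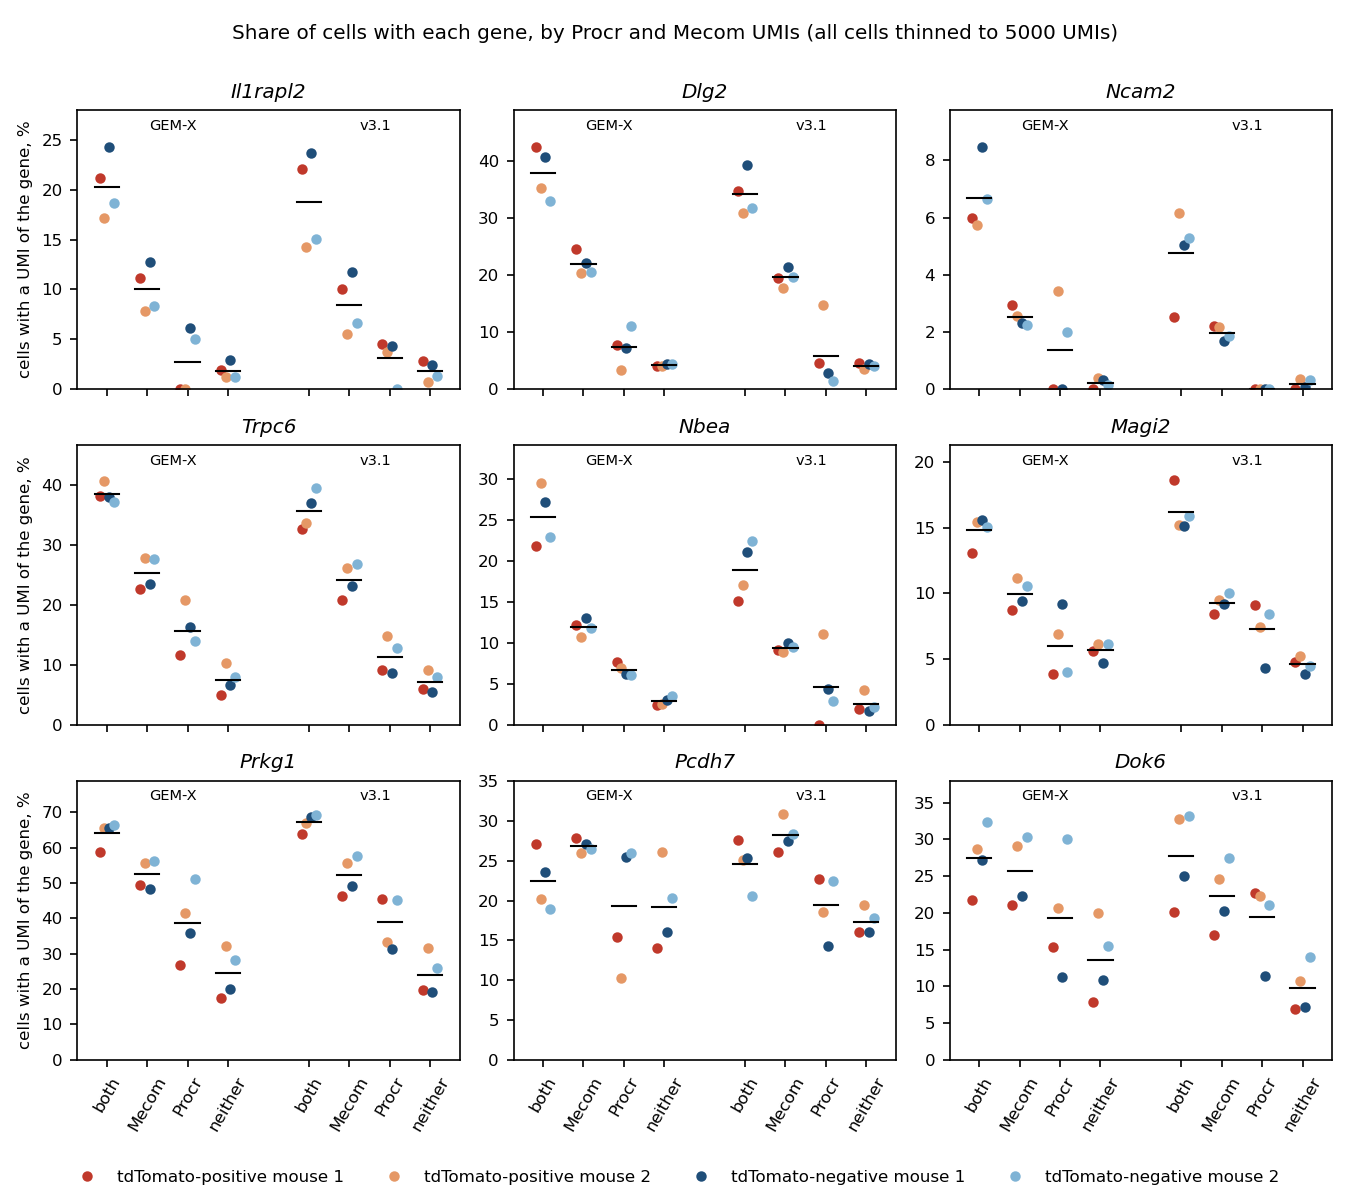
Share of cells with a UMI of each of the 9 genes (percent, cells thinned to 5000 UMIs) in cells with both Procr and Mecom, Mecom alone, Procr alone or neither, with points for the 4 tubes, for GEM-X on the left and v3.1 on the right. The share in cells with both exceeds that in cells with neither in every tube for 8 genes, and the tubes mix for Pcdh7 with GEM-X. The share of all genes that did so was not computed.

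Within HSC-like cells the contrast was smaller and rested on few cells, as 133 GEM-X and 49 v3.1 cells had neither gene. Il1rapl2 was in 29.6% of GEM-X cells with both genes and 12% of those with neither, and in 30.7% of v3.1 cells with both genes and 14.3% of those with neither, higher in 4 of 4 tubes of both chemistries. Dlg2 was in 50.8% of GEM-X cells with both genes and 22.6% of those with neither, higher in 4 of 4 tubes, and in 51.4% of v3.1 cells with both genes and 30.6% of those with neither, higher in 3 of 4. Dok6 was in 31.8% of GEM-X cells with both genes and 32.3% of those with neither, and in 36.3% of v3.1 cells with both genes and 32.7% of those with neither, higher in 2 and 3 of 4 tubes. Pcdh7 was in 18.5% of GEM-X cells with both genes and 19.5% of those with neither, and in 22.8% of v3.1 cells with both genes and 28.6% of those with neither, higher in 2 and 1 of 4 tubes. Nbea was in 34.9% of GEM-X cells with both genes and 13.5% of those with neither, higher in 4 of 4 tubes, and in 30.9% of v3.1 cells with both genes and 22.4% of those with neither, higher in 2 of 4. Prkg1 was in 73.5% of GEM-X cells with both genes and 64.7% of those with neither, higher in 2 of 4 tubes, and in 78.9% of v3.1 cells with both genes and 71.4% of those with neither, higher in 4 of 4. Trpc6 and Magi2 were higher in 4 of 4 tubes with GEM-X and 3 of 4 with v3.1, and Ncam2 in 4 of 4 with both. Inside the HSC-like class the tubes thus disagreed in direction in at least 1 chemistry for 7 of the 9 members, all but Il1rapl2 and Ncam2. Ncam2 was in only 8.11% of GEM-X and 7.72% of v3.1 HSC-like cells. With so few cells holding neither Procr nor Mecom, its agreement over tubes carries little weight. Across the 4144 GEM-X and 2436 v3.1 HSC-like cells, which share 1 library per chemistry and a fixed depth, Spearman's rho with Mecom was 0.204 and 0.240 for Dlg2 and 0.176 and 0.187 for Il1rapl2, and with Procr 0.06 and 0.0655 for Dlg2. Pcdh7 had -0.0235 and -0.00199 with Mecom. Correlations this weak in sparse counts are given for their order and are no finding.

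Members also met each other. Of 36 pairs, 30 with GEM-X and 30 with v3.1 were found together in more HSC-like cells than the product of their shares gives. The median ratio to that product was 1.18 with GEM-X and 1.20 with v3.1. The share of all gene pairs above the product was not computed, so the excess is not shown to be particular to the members. Il1rapl2 and Ncam2 had the highest excess, 173 GEM-X cells where 85.0 would follow (2.04 times) and 106 v3.1 cells where 51.6 would (2.05 times). Trpc6 and Prkg1 had the strongest rank correlation over cells, with rho 0.286 and 0.314, followed by Dlg2 and Trpc6 with 0.262 and 0.303. Ncam2 and Dok6 had the lowest ratio, 0.770 with GEM-X and 0.833 with v3.1. The pairs fell into clusters 3 and 0 unequally, and these values hold no test.

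Over the 18 clusters the pattern of each member was set beside 9416 genes of at least 10 CPM, by the Pearson correlation of log2(CPM + 1), taking the lower of the GEM-X and v3.1 values. The clusters share libraries and were built from these genes, so the values only rank likeness. Closest to Il1rapl2 were Prex2 (0.892), Tnip3 (0.884), Cpne8 (0.882), to Ncam2 Itsn1 (0.816), Cpne8 (0.813), B3galt1 (0.782), and to Pcdh7 Dach1 (0.908), Sox6 (0.898), Tek (0.880). Pcdh7 thus ran beside Sox6, a transcription factor, and Tek, the angiopoietin receptor. Closest to Trpc6 were Plxna4 (0.95), Prkg1 (0.941), Ptgs1 (0.939), to Dlg2 Mmrn1 (0.92), Csgalnact1 (0.874), Trpc6 (0.851), to Magi2 Tbxas1 (0.923), Plcl1 (0.914), Uba7 (0.913), and to Nbea Itsn1 (0.921), Rhof (0.915), Rgs1 (0.907). Among the closest to Prkg1 were Trpc6 (0.941), Gm29946 (0.938), and closest to Dok6 were Exoc6b (0.947), Plekha5 (0.943), Zbtb20 (0.942). Among the members the most alike were Trpc6 and Prkg1 (0.941), whose promoters are printed above, and the least alike Ncam2 and Pcdh7 (0.396). With Procr the correlation was highest for Il1rapl2 (0.832), and with Mecom for Prkg1 (0.873).

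Which genes differed between tdTomato-positive and tdTomato-negative cells was asked over the 4 tubes, with counts summed over both chemistries and the mouse as a block. All 9 members passed the filter on low counts in this and the later comparisons. In all cells edgeR's quasi-likelihood test called 0 of the 9 members at an adjusted p of 0.05, where it called 0.796% of 16586 genes (0.555% higher and 0.241% lower in the tdTomato-positive tubes), with 2 members at an unadjusted p under 0.05. DESeq2 also called 0, with 0 at an unadjusted p under 0.05. Dok6 had 39.9 and 70.1 CPM in the tdTomato-positive tubes of mouse 1 and mouse 2 and 46.6 and 69.7 CPM in the tdTomato-negative tubes with GEM-X, and 38.3 and 63.7 CPM in the tdTomato-positive tubes of mouse 1 and mouse 2 and 44.0 and 69.9 CPM in the tdTomato-negative tubes with v3.1. Summed over chemistries it was lower in the tdTomato-positive tube of both mice, by a log2 fold change of -0.12 ± 0.037 (SE, unadjusted p 0.00276, adjusted p 0.17, and 0.0912 to 1 over the alternatives, edgeR), but the 2 mice differed more than the gates. Il1rapl2 had 29.8 and 32.1 CPM in the tdTomato-positive tubes of mouse 1 and mouse 2 and 39.1 and 29.6 CPM in the tdTomato-negative tubes with GEM-X, and 43.4 and 37.5 CPM in the tdTomato-positive tubes of mouse 1 and mouse 2 and 51.7 and 37.2 CPM in the tdTomato-negative tubes with v3.1. The gates differed in opposite directions in the mice, by -0.32 in mouse 1 and 0.067 in mouse 2 on the log2 scale, and the fitted log2 fold change of -0.13 ± 0.049 had an adjusted p of 0.398 (edgeR; 0.146 to 1 over the alternatives). The SE draws on a dispersion trend over all genes, and for Il1rapl2 it does not cover the gap between the mice. The other 7 members had log2 fold changes from -0.065 (Nbea) to 0.057 (Ncam2), and the median of the 9 was 0.019 against 0.0017 over all genes tested.

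In HSC-like cells the same test again called 0 of the 9 members, against 0.0867% of 13834 genes (0.0506% higher and 0.0361% lower), with 3 members at an unadjusted p under 0.05. DESeq2 called 0, with 0 at an unadjusted p under 0.05. Ncam2, at the HSC-like levels given above, gave 0.24 ± 0.071 on the log2 scale (adjusted p 0.302; 0.291 to 1 over the alternatives, edgeR), with -0.14 in mouse 1 and 0.53 in mouse 2. Dlg2 was higher in the tdTomato-positive tube of both mice, with 0.12 ± 0.036 (edgeR, adjusted p 0.279; 0.273 to 1 over the alternatives). Dok6 was lower in both mice, with -0.12 ± 0.049 (edgeR, adjusted p 0.826; 0.764 to 1 over the alternatives). For the other 6 members the log2 fold change lay between 0.012 (Prkg1) and 0.092 (Magi2). Procr and Mecom were not called either, with 0.16 ± 0.059 and 0.053 ± 0.016 (edgeR, adjusted p 0.735 and 0.375). For Ncam2 the SE of 0.071 does not cover the gap between the mice, -0.14 and 0.53. With 2 mice these SEs do not show that the gates are alike.

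Of the genes around the members, 0 of 24 tested family relatives, 1 of 37 other neural adhesion and synapse genes and 1 of 20 ligands, receptors and effectors passed the gate test in all cells. Dscam, a neural adhesion molecule, was lower in the tdTomato-positive tubes (-0.31 ± 0.068, adjusted p 0.00751, edgeR), and Plcb1, a phospholipase that makes the diacylglycerol which opens Trpc6, was higher (0.33 ± 0.053, adjusted p 4.42e-05). Plcb1 was among the leading genes of megakaryocyte-platelet-like cluster 10. That cluster held 2.80% and 3.54% of GEM-X cells in the tdTomato-positive tubes of mouse 1 and mouse 2. The tdTomato-negative tubes had 1.97% and 2.45%. With v3.1 the shares were 1.91% and 3.35% against 1.93% and 2.15%. The part of this mix in the call was not tested, and Dscam and Plcb1 were not followed under the alternatives. In HSC-like cells none of 20, 19 and 16 tested genes of the 3 lists was called.

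The chemistries were compared within tubes, over 8 sums with the tube as a block. Each chemistry was 1 library, so the test holds no spread between libraries. Chemistry, library, depth and Cell Ranger version (8.0.1 for GEM-X, 7.1.0 for v3.1) cannot be told apart. The SEs and p-values draw on a dispersion trend over all genes, so they can understate a gene's own spread over tubes. In HSC-like cells the log2 ratios of CPM per tube ran from -0.63 to -0.39 for Prkg1 and from -0.63 to -0.30 for Magi2. In HSC-like cells edgeR's quasi-likelihood test called 8 of the 9 members, all lower with GEM-X, where 66.2% of 13087 genes were called, 32.5% higher and 33.7% lower. The median log2 fold change of the members, GEM-X over v3.1, was -0.35, against -0.022 over all genes tested. Among the surface genes Il1rapl2 (-0.46 ± 0.036, adjusted p 4.92e-36), Ncam2 (-0.39 ± 0.062, adjusted p 7.42e-10) and Pcdh7 (-0.22 ± 0.047, adjusted p 4.29e-06) were lower. Il1rapl2 and Ncam2 were lower with GEM-X in 4 of 4 tubes and Pcdh7 in 3 of 4, and the edgeR call of Pcdh7 was lost without the tube as a block (adjusted p 0.28). The channel gene Trpc6 (-0.28 ± 0.033, adjusted p 1.67e-16) and the scaffolds Dlg2 (-0.35 ± 0.032, adjusted p 3.41e-27) and Magi2 (-0.41 ± 0.053, adjusted p 9.80e-14) were lower in 4 of 4 tubes (edgeR). Prkg1 had the strongest shift of the signalling genes, averaging 489 ± 20.7 CPM with GEM-X and 686 ± 31.4 CPM with v3.1 (SD over 4 tubes), without overlap (-0.48 ± 0.023, adjusted p 1.99e-95, edgeR). Dok6 was lower in 3 of 4 tubes (-0.16 ± 0.042, adjusted p 2.55e-04, edgeR), and its call was lost with DESeq2 (adjusted p 0.159), without the block (0.143) and without the tdTomato-negative tube of mouse 2 (0.298). Nbea was not called, with 84.6 ± 10.1 CPM with GEM-X and 87.5 ± 5.69 CPM with v3.1 (-0.044 ± 0.049, adjusted p 0.429, edgeR). The stem cell genes shifted as far, Procr by -0.50 ± 0.051, adjusted p 1.47e-21 and Mecom by -0.47 ± 0.019, adjusted p 1.49e-130 (edgeR). Without the tube as a block the test called 6 of the 9 members and 61.2% of all genes.

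In all cells 8 of the 9 members were called, against 73.2% of 15862 genes (37% higher and 36.2% lower), with 6 lower and 2 higher with GEM-X. The median was -0.19, against -0.015 over all genes. Prkg1 had 190.1 and 267 CPM in the tdTomato-positive tubes of mouse 1 and mouse 2 and 207 and 254 CPM in the tdTomato-negative tubes with GEM-X, and 247 and 339 CPM in the tdTomato-positive tubes of mouse 1 and mouse 2 and 253 and 326 CPM in the tdTomato-negative tubes with v3.1. It was lower with GEM-X in 4 of 4 tubes (-0.31 ± 0.016, adjusted p 1.40e-12, edgeR), as was Il1rapl2 (-0.35 ± 0.040, adjusted p 2.42e-07). Dlg2 (-0.23 ± 0.029, adjusted p 1.23e-06), Magi2 (-0.19 ± 0.042, adjusted p 4.88e-04), Ncam2 (-0.21 ± 0.061, adjusted p 0.00502) and Trpc6 (-0.11 ± 0.030, adjusted p 0.00257) were lower in 4 of 4 tubes (edgeR). With every cell thinned to 5000 UMIs, which set aside shallow cells, Ncam2 was -0.0074 ± 0.088 (adjusted p 0.947), Trpc6 -0.042 ± 0.028 and Magi2 -0.064 ± 0.053, and none of these 3 was called. Nbea (0.11 ± 0.042, adjusted p 0.032) and Dok6 (0.088 ± 0.029, adjusted p 0.012) were higher in 3 of 4 tubes, and with DESeq2's size factors the adjusted p of Nbea was 0.0616. Pcdh7, with 95.3 ± 2.56 CPM with GEM-X and 99.3 ± 3.18 CPM with v3.1 (SD over 4 tubes), was not called (-0.033 ± 0.017, adjusted p 0.0835, edgeR) and was called lower with DESeq2's size factors (-0.047 ± 0.017, adjusted p 0.0161). With DESeq2 5 members were called in all cells, where it called 41.1% of 24314 genes with no filter on low counts, and 7 in HSC-like cells, where it called 28.5% of 21204. Without the tube as a block 3 members and 61.9% of all genes were called in all cells. Without the tdTomato-negative tube of mouse 1, 5 members and 70.3% of all genes were called in all cells, and 8 members and 61.7% in HSC-like cells.

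**Figure D4:**
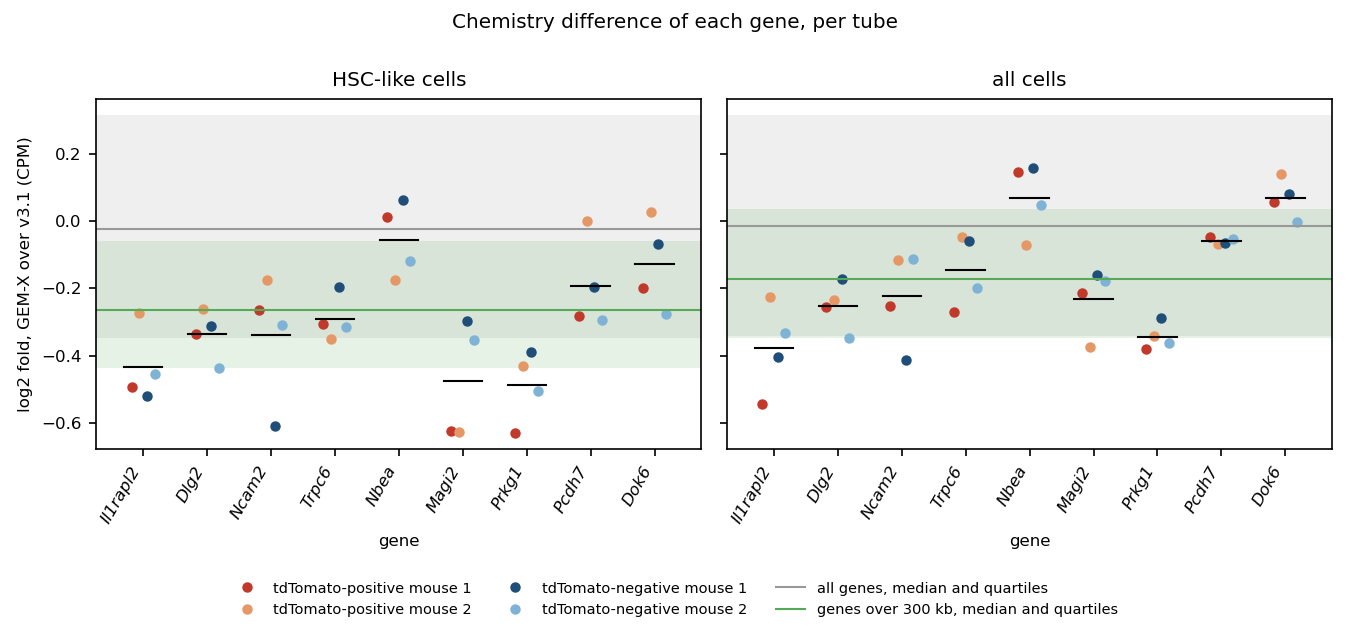
Log2 fold change of each gene, GEM-X over v3.1, in all cells and in HSC-like cells. Values are ratios of CPM, points are the 4 tubes, black bars their mean, and lines with bands the median and quartiles of all genes (grey) and of genes over 300 kb (green). In HSC-like cells the means of all 9 genes lie below 0, Nbea closest to it, and in all cells those of Nbea and Dok6 lie above 0.

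Of the members, 8 span over 300 kb, all but Trpc6, and genes of that length as a whole were lower with GEM-X. In HSC-like cells 59.7% of the 303 tested genes over 300 kb were called lower and 9.24% higher, with a median log2 fold change of -0.27, and in all cells 45.0% and 15.1% of 416, with a median of -0.17. Genes of 30 to 100 kb leaned the other way, with medians of 0.11 and 0.13, while those under 10 kb, the length class of Procr, had -0.23 and -0.21. The part of length in the members' values was not tested. At 5000 UMIs a cell Il1rapl2 was in 25.3% of GEM-X and 27.5% of v3.1 HSC-like cells, Prkg1 in 72.5% of GEM-X and 77.5% of v3.1 cells, and Nbea in 28.3% of GEM-X and 26.8% of v3.1 cells. Unthinned, Il1rapl2 was in 30% of GEM-X and 31.7% of v3.1 cells, Prkg1 in 78.7% and 78.8%, and Nbea in 36.4% and 32.2%, at medians of 7339 and 6034 UMIs and 2.06% and 2.84% mitochondrial UMIs.

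Genes related to the members were counted too, beside the 32.5% of all genes called higher and 33.7% called lower in HSC-like cells. There 7 of 19 tested family relatives were higher and 6 lower with GEM-X, with a median of -0.044, shares near those of all genes. In all cells 10 were higher and 7 lower of 23. The relatives with the largest shifts in HSC-like cells were Il1rapl1 (3.14 ± 0.15, adjusted p 3.84e-101), the guanylate kinase scaffold Dlg3 (0.98 ± 0.092, adjusted p 2.88e-25) and the BEACH-domain gene Nbeal2 (0.73 ± 0.083, adjusted p 6.41e-18) upward, and Magi1 (-0.59 ± 0.13, adjusted p 1.90e-05), Dlg4 (-0.39 ± 0.072, adjusted p 1.55e-07) and Dok2 (-0.23 ± 0.072, adjusted p 0.0028) downward (edgeR). Il1rapl1, the nearest relative of Il1rapl2, had 34.0 and 28.7 CPM in HSC-like cells of the tdTomato-positive tubes of mouse 1 and mouse 2 and 27.5 and 22.7 CPM in those of the tdTomato-negative tubes with GEM-X, against 1.37 and 1.61 CPM in the tdTomato-positive tubes and 3.82 and 3.04 CPM in the tdTomato-negative tubes with v3.1, so every GEM-X value of Il1rapl1 exceeded every v3.1 value, the opposite of Il1rapl2 within each tube. Of other neural adhesion and synapse genes 2 of 16 were higher and 5 lower in HSC-like cells, among them the postsynaptic adhesion gene Nlgn2 (0.30 ± 0.073, adjusted p 9.69e-05) upward and the postsynaptic scaffold Shank3 (-0.29 ± 0.060, adjusted p 3.61e-06) downward, and 4 and 7 of 30 in all cells. Of ligands, receptors and effectors 9 of 16 were higher and 3 lower, and 12 and 3 of 18 in all cells. Gucy1a1, a subunit of the guanylate cyclase that makes the cGMP for Prkg1, was higher (0.71 ± 0.071, adjusted p 7.66e-23), as were Ctnnb1 (0.66 ± 0.047, adjusted p 1.13e-43) and Plcg1 (0.62 ± 0.069, adjusted p 1.53e-18), while the calcium entry gene Orai1 (-0.42 ± 0.044, adjusted p 3.14e-21), its sensor Stim1 (-0.31 ± 0.041, adjusted p 1.25e-13) and Plcb1 (-0.38 ± 0.070, adjusted p 2.66e-07) were lower.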

How the data were processed

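The deposited values are raw UMI counts per gene and barcode, made by the authors with Cell Ranger, version 8.0.1 for GEM-X and version 7.1.0 for v3.1, per the file headers. The submitters' processing notes name Cell Ranger 7.0.0 and mm10. Neither strand nor intron settings are given in the sources used here. The matrices were tied to the chemistries by their names, and every column had a sample (0 without one).

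Barcodes under 1000 genes or over 10% mitochondrial UMIs were removed, and cells with exactly 1 hashtag, by a 2-component Gaussian mixture on log hashtag counts with a posterior of 0.5, were given to a tube. The chemistries were clustered together (scanpy 1.11.5, 2000 variable genes, 30 components, 30 neighbours, Leiden resolution 1), and a cluster was named where at least 3 markers of a cell type, and at least 2 of every 3 detected, were raised by 0.5 on the log2 scale and did not go against its leading genes. The HSC markers include Procr and Mecom. Cells with 2 hashtags were left out as doublets. Scrublet's own threshold called no GEM-X cell, so, chosen after seeing the data, the 6% of cells with the highest scores were left out in an alternative.

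UMIs were summed per tube and chemistry and tested with edgeR 4.0.16 (quasi-likelihood, TMM, a dispersion floor of 1e-04 set after seeing the data, Benjamini-Hochberg adjustment over all genes tested), with DESeq2 1.42.0 as an alternative. SE was obtained as the estimate over the root of its F statistic. It rests on a dispersion trend over all genes and can understate a gene's own spread between mice or tubes. Blocks were mice for the gates, where both tubes of a mouse share the animal (deviations of tubes correlated with r = 0.553 and rho = 0.564 over 16586 genes), and tubes for the chemistries. Nothing in the labels says that the split tubes were separate samplings, so p-values of the chemistry test hold no spread between libraries. They draw on a dispersion trend over all genes rather than on the tubes of 1 gene alone. Each test was also run on simulated counts, after the fits to the real counts. Their dispersion was the median of those fits, and they held no mouse or tube effect, so they say nothing about such effects. PCR duplicates are removed by UMIs, and intervals cover counting error only.

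The 9 genes and all lists were chosen with earlier results of these data known. Named were the 9 genes, Procr and Mecom, up to 3 genes per list and direction with the largest called change and at least 10 CPM, and the 3 genes most like each member over clusters, with a pseudocount of 1 on the log2 scale; some genes that this rule names are not reported here. Alternatives were another normalization, no filter on low counts, no block, each tube left out, each chemistry alone, thinning, other cell filters, another clustering, and the cluster of lowest UMIs left out; the tests in the other clustering and without that cluster were chosen after seeing the data. Loci came from GENCODE M21 (GRCm38) and promoters from RefSeq (GRCm38.p6).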

Additional observations from a re-analysis of the deposited data

Results flagged for a closer look

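Pcdh7 stood apart between the mice. Its HSC-like level divided by its level in other cells was at least 1.12 in every tube and chemistry of mouse 1 and at most 0.788 in those of mouse 2, so the mice lay on opposite sides of 1. With 1 animal on each side, the difference between the mice was not tested.

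A single tube stood far from the other 3 in 4 of 162 sets of 4 tubes, by Dixon's 95% critical value, which chance passes in about 1 of 20. The sets were the members' levels in all, HSC-like and other cells, their HSC-like over other ratios, their GEM-X over v3.1 fold changes, and their shares of cells at 5000 UMIs with both Procr and Mecom or with neither. Ncam2 in HSC-like cells with GEM-X had 60.1 CPM in the tdTomato-positive tube of mouse 2 and 40.1 to 41.4 CPM in the other 3. Nbea in HSC-like cells with v3.1 had 79.0 CPM in the tdTomato-negative tube of mouse 2 and 89.9 to 91.1 CPM in the other 3. Among all GEM-X cells with both Procr and Mecom, Prkg1 was in 58.7% in the tdTomato-positive tube of mouse 1 and 65.5% to 66.3% in the other 3. Among v3.1 HSC-like cells with neither, Dlg2 was in 60% in the tdTomato-positive tube of mouse 1, 3 of 5 cells, and 25% to 28.6% in the other 3.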

How the results depend on the processing

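The count of genes called between the gates, 132 in all cells, rested on the mouse block and on both chemistries. It was 6 with DESeq2, 208 with no filter on low counts, 0 with no replicate block, 1 with GEM-X counts alone, 61 with v3.1 counts alone, 32 without Scrublet doublets and 42 without the cluster of lowest UMIs, and 0 to 1 when any 1 of the 4 tubes was left out. In HSC-like cells the count of 12 was 1 with DESeq2, 0 with no replicate block, 6 with GEM-X alone, 1 with v3.1 alone, 5 without Scrublet doublets, 5 after clustering without the 9 genes, Procr and Mecom, and 0 to 1 with a tube left out. The 9 genes were called between the gates under none of these settings. The chemistry call of 8 members in all cells became 5 with DESeq2, 3 with no replicate block of tubes, and 5 to 8 with a tube left out. At least 3 members were in 57.4% of GEM-X cells with Procr and Mecom before thinning and 35.9% at 3000 UMIs, and in 52.9% and 37.7% of v3.1 cells, since fewer UMIs per cell detect fewer genes.

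The direction of the gate difference, never called for a member, turned in some settings, and the cause was not tested. With a tube left out, log2 fold changes in all cells ran over Il1rapl2 -0.36 to 0.12, Ncam2 -0.35 to 0.41, Trpc6 -0.19 to 0.20, Dlg2 -0.012 to 0.11, Magi2 -0.10 to 0.21, Nbea -0.17 to 0.036, Prkg1 -0.21 to 0.20, Dok6 -0.51 to 0.21, Procr -0.19 to 0.20 and Mecom -0.16 to 0.046. In HSC-like cells they ran over Il1rapl2 -0.25 to 0.35, Ncam2 -0.048 to 0.44, Pcdh7 -0.45 to 0.49, Trpc6 -0.047 to 0.18, Dlg2 -0.13 to 0.40, Magi2 -0.0093 to 0.17, Nbea -0.084 to 0.23, Prkg1 -0.031 to 0.053, Dok6 -0.28 to 0.068 and Mecom -0.00019 to 0.10. Prkg1 in all cells was -0.0011 with DESeq2, -0.0035 with no filter, -0.013 with GEM-X alone, -0.0048 without Scrublet doublets and -0.00055 without the cluster of lowest UMIs, and Procr was 0.060 with v3.1 alone. In HSC-like cells Prkg1 was -0.0018 with no filter, -0.026 with GEM-X alone and -0.018 in the other clustering, Magi2 was -0.048 with GEM-X alone, Pcdh7 -0.023 in the other clustering and Il1rapl2 -0.020 with v3.1 alone. Nbea between the chemistries in HSC-like cells was 0.054 after thinning. Of the log2 fold changes under the alternatives, 435 kept direction and call, 21 lost the call, 3 gained one and 47 turned direction.

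With 2 mice and 1 library per chemistry, small gate differences were not detectable, and genes near 1 CPM in a class, such as Ncam2 outside HSC-like cells, rest on few UMIs. Blocking by mouse follows from the labels, since both tubes of a mouse share the animal.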

Other observations

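Genes related to the 9 also differed between HSC-like and other cells, as a description over the 8 combinations of tube and chemistry and without a test. Of 16 family relatives with a mean of at least 10 CPM, 12 were higher in HSC-like cells in all 8 and 1 lower, with a median ratio of 1.35. Of 8 other neural adhesion and synapse genes, 5 were higher in all 8 and 1 lower (median 1.66), and of 14 ligands, receptors and effectors 7 were higher and 2 lower (median 1.15). These values rest on clusters built from the same cells. The same counts and ratios over all genes of that level were not computed, so the lists are not shown to stand out.

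The following genes were singled out after their values were seen. Among relatives, the scaffold Dlg1 had 182 to 205 CPM in HSC-like cells and 130.1 to 154 CPM in other cells, and Lrba, a BEACH-domain relative of Nbea, had 185 to 216 CPM in HSC-like cells and 127 to 148 CPM in other cells. Gucy1a1, which serves the cGMP pathway of Prkg1, had 16.1 to 55.9 CPM in HSC-like cells and 7.42 to 14.1 CPM in other cells. From the same list, Vasp was higher in 8 of 8 combinations and Pde5a lower in 8 of 8. Gucy1b1 averaged 1.76 CPM in HSC-like and 2.04 CPM in other cells, higher in 4 and lower in 4. A rise of the pathway as a whole is thus not shown. Of the neural adhesion genes, Dscam was lower, with 1.18 to 6.64 CPM in HSC-like cells and 9.93 to 17.3 CPM in other cells, and Gfra1, the GDNF co-receptor that works with RET, the receptor to which Dok6 docks, had 0 to 0.900 CPM in HSC-like cells and 3.61 to 6.52 CPM in other cells.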
